A study of Drosophila melanogaster with 88 samples.

Results

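Heads of female Drosophila melanogaster aged 20 days were compared between flies labelled VAPP58S (P58S) and flies labelled VAPWT (WT). Members were chosen by their titles, which give sex, tissue, genotype and age: 4 P58S and 4 WT libraries, 8 of the 88 in the series. The labels do not say how the alleles were made, how many heads went into a library or whether the replicates came from separate sets of animals. The p-values below therefore reflect the variation among these libraries, which may be technical. Female heads aged 5 days and female guts aged 20 days are drawn on only where they show how the day 20 female heads stand. The same holds for male heads of the same genotypes aged 5, 15 and 20 days. Each male difference given is that of day 20.

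VAP, encoded in the fly by Vap33 (dm6 X:3948975-3955442), is an integral membrane protein of the endoplasmic reticulum. Its MSP domain binds short motifs on partner proteins and so holds the endoplasmic reticulum against other membranes, where lipids pass between them. P58S is the fly counterpart of a proline-to-serine change in human VAPB that causes ALS8, a familial motor neuron disease, and the mutant protein forms aggregates. A fly head holds brain neurons and glia, the compound eyes, muscle, cuticle and a layer of fat body, the tissue that secretes immune peptides and yolk protein. The comparison asks which transcripts in the aged female head differ with the P58S allele.

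Values are CPM, reads scaled to the same total in every library, from sequencing of transcript 3′ ends, so a level does not grow with gene length. Each log2 difference is P58S minus WT, with its standard error (SE) where given. Limma values, for female heads and guts, are on the log2(CPM + 1) scale, which understates changes of low genes. EdgeR values, among them all male head values, are log2 fold changes after TMM scaling without the added 1 CPM. Their SE is worked back from the test statistic. Sizes from limma and edgeR are therefore not on the same scale. The test was limma over all 9640 genes tested, with all 16 female head libraries sharing the estimate of spread, and a gene was called at a Benjamini-Hochberg adjusted p under 0.05. Where it is named for female heads, edgeR was run on the whole reads recovered from the CPM steps, and for male heads on the raw counts.

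Depth did not overlap between the genotypes. The WT libraries held 1055769, 2713810, 1683623 and 2038463 reads and 6687 to 9006 genes with a read, and the P58S libraries 6817556, 3148578, 4097888 and 4005310 reads and 9419 to 9909 genes. Log2(CPM + 1) values of pairs of WT libraries correlated at 0.738 to 0.82 across genes, and those of P58S pairs at 0.904 to 0.914, which is a description of the libraries since genes are not replicates. WT replicate 1 stood apart: 227 of the 4252 genes that had at least 10 CPM in each of the other 3 WT libraries had no read in it (5.34%), against 3 to 21 genes in the other WT libraries and 0 to 1 in the P58S libraries. The median log2 difference over all genes tested was 0.16, and it was 0.51 for the 3742 genes under a mean of 10 CPM, 0.15 for the 3554 genes from 10 to 50 CPM and -0.068 for the 2344 genes at 50 CPM or more. With the 8 libraries thinned to the 1055769 reads of the shallowest, the low genes still had a median of 0.55. The all-gene median was 0.26 with TMM scaling and 0.045 in edgeR. The part of this shift in the results on low genes was not tested.

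Head identity was checked against marker lists. The photoreceptor genes summed to 23403 to 31319 CPM in WT and 26768 to 35995 CPM in P58S, and neuronal, glial, fat body and muscle markers were read in all 8 libraries. Neuronal markers summed to 2823 to 3550 CPM in WT and 2542 to 2771 CPM in P58S and did not overlap, with 0 of 7 called by limma, 0 at an unadjusted p under 0.05 and 0 by edgeR. Gut markers were present at 397 to 3822 CPM in WT and 599 to 2336 CPM in P58S. Of the 5 male genes listed, 3 were found, and they were at 0 in all WT libraries and summed to 0 to 3.49 CPM in P58S. In male heads 0 of them passed the filter for testing, so these values do not check the sex of the flies. In whole heads, fewer cells of a type and less RNA per cell cannot be told apart.

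Of the 9640 genes tested, 3 were called (0.0311%), all lower in P58S: Rh4, to and CG6006. None was called higher by limma, although 404 genes (4.19%) stood higher and 88 (0.913%) lower at an unadjusted p under 0.05, and edgeR called 11 higher (0.125%) and 3 lower (0.0341%). With TMM scaling limma called 7 higher and 3 lower, and with each library centred on its median 2 higher and 2 lower. The 4 P58S values lay wholly above the 4 WT values for 363 genes (3.77%) and wholly below them for 199 (2.06%). Under 5 other fits of the same comparison (edgeR, which called 0.159% of its genes, library quality weights, 0.353%, day 20 libraries alone, 0.219%, thinned libraries, 0.19%, and the fit without the 3 shallowest libraries, 0.429%), 49 genes were called at least once and 12 by all 5: Rh4, to and CG6006 on the low side, and BomS1, BomS2, BomS5, Dso1, Drsl4, TotC, hry, Ank2 and glob1 on the high side. Those 5 were among the settings with the most calls. Over all 20 alternative settings, Rh4 and to were called in 20 and CG6006 in 13. The high-side genes were called in far fewer: hry, Ank2 and TotC in 5, BomS1, BomS2 and glob1 in 6, and BomS5, Dso1 and Drsl4 in 7.

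The targeted gene, Vap33, read 618, 575, 521 and 519.5 CPM in WT and 554, 583, 565 and 554 CPM in P58S. The groups overlapped, and the log2 difference was 0.018 (SE 0.17, limma adjusted p 1). A 3′ count of Vap33 does not show which allele a library carries.

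**Figure D1:**
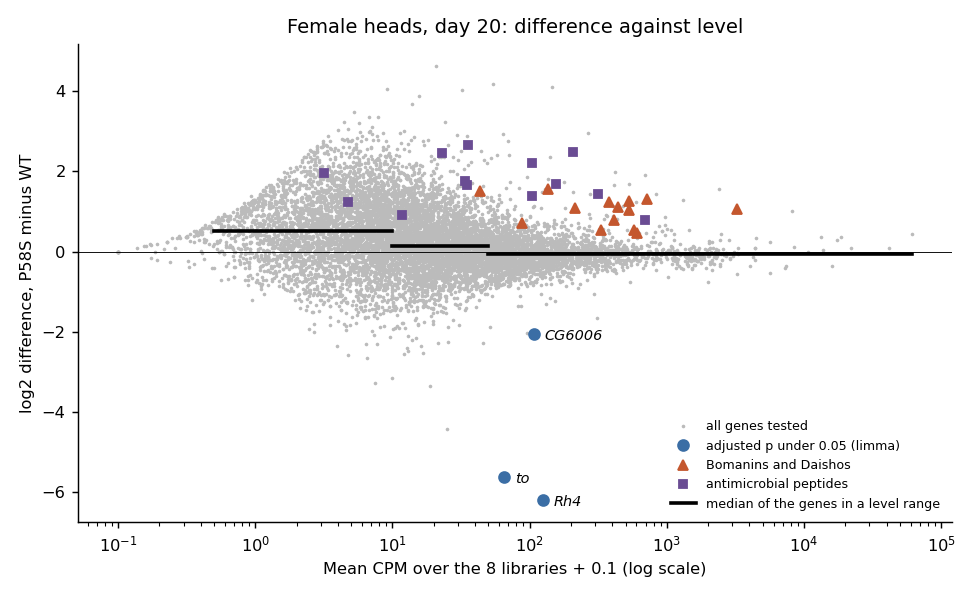
Each grey point is 1 of the 9640 genes tested in female heads at day 20, with its mean CPM over the 8 libraries + 0.1 on a log axis and its log2 difference (P58S minus WT) on the y axis. Blue points are the 3 called genes, triangles the Bomanins and Daishos, squares the antimicrobial peptides, and black lines the median log2 differences of 0.51, 0.15 and -0.068 in 3 ranges of level.

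Rh4 encodes an ultraviolet-sensitive opsin, the light receptor of a subset of R7 photoreceptors, the inner cells of the eye units that serve ultraviolet vision (dm6 3L:16852527-16862517). It read 212, 207, 257 and 310.0 CPM in WT and 1.76, 3.18, 2.2 and 2.25 CPM in P58S. Every P58S library lay far under every WT library, and the ratio of the group means was 105. The mean was 246 CPM ± 47.9 (SD, n = 4) in WT and 2.34 CPM ± 0.596 (SD, n = 4) in P58S. Rh4 fell by 6.21 on the log2 scale (SE 0.83, limma adjusted p 0.00194), and by 6.60 in edgeR (SE 0.75, adjusted p 9.31e-06). It stayed called under all 20 alternative settings.

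Rh4 was also lower in P58S in younger female heads, where Rh4 read 172, 9.97, 169 and 23.3 CPM in WT at day 5 and 0 to 2.9 CPM in P58S. The low WT values at day 5 were those of replicates 2 and 4, the shallowest female head libraries at 200661 and 386314 reads, where Rh4 had 2 and 9 reads. The other day 5 WT libraries held 3652411 and 1500095 reads and the P58S libraries 3103790 to 3687377, so depth was uneven within WT at that age. The day 5 difference was -5.14 (limma adjusted p 0.0331, with 0.0519% of genes called at that age). It kept its call in 13 of 19 alternatives and lost it with the replicate block (adjusted p 0.0598), with day 5 libraries alone (0.312), without WT replicate 3 (0.0744) and without P58S replicate 1, 2 or 3 (0.0728 to 0.139), at -5.14 to -4.58. The change of the effect between the ages was -1.07 (adjusted p 0.853). In male heads Rh4 was nearly unread in both genotypes: 0 to 1.80 CPM (0 to 17 reads) in the 12 WT libraries of days 5, 15 and 20 and 0.158 to 1.92 CPM (1 to 22 reads) in the 12 libraries labelled VAPP58S. The male and female tables came from different kits and were normalized separately, so no test was run across them.

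**Figure D2:**
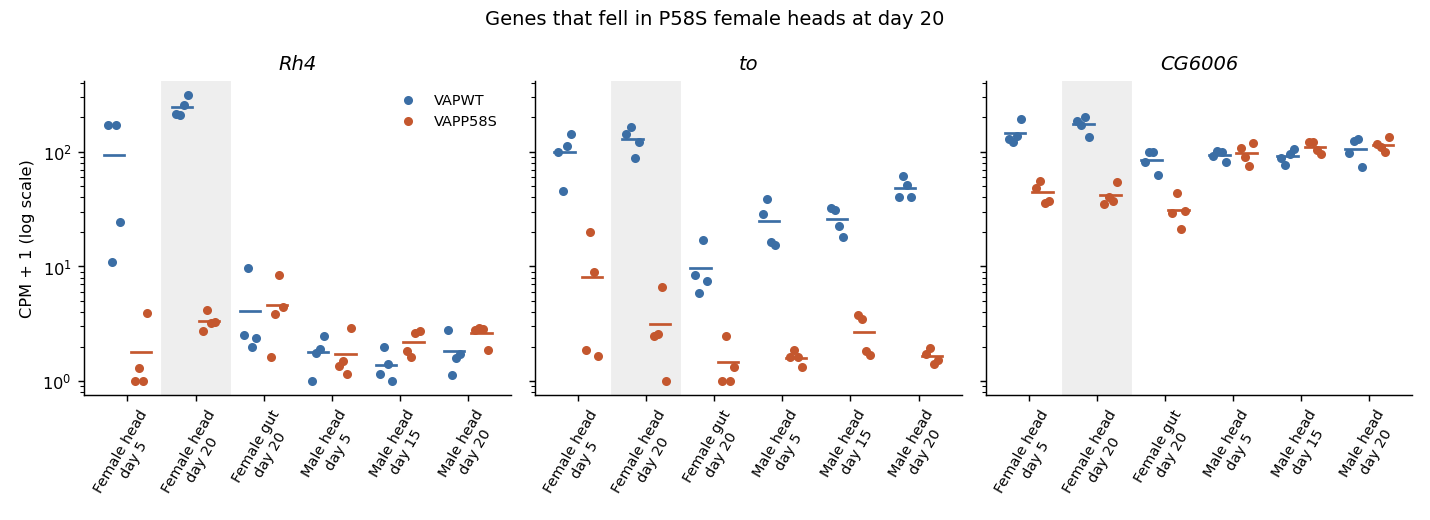
CPM + 1 on a log axis for Rh4, to and CG6006 in 4 libraries per group, blue for WT and orange for P58S, with bars at the group means and the day 20 female heads shaded. Rh4 stood at 207 to 310.0 CPM in WT female heads at day 20 and at or under 3.18 CPM in P58S, CG6006 was lower in P58S in the female groups shown, and to was lower in P58S in each group shown.

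The other opsins did not move as Rh4 did. Rh3, the opsin of the other R7 subset, read 55.9, 107, 113 and 210.0 CPM in WT and 44.7, 43.5, 26.6 and 60.4 CPM in P58S. The groups overlapped by 1 WT library, the shallow replicate 1, and the difference was -1.35 (SE 0.69, limma adjusted p 0.989); without the 3 shallowest libraries it was -1.67 (adjusted p 0.00817). Rh5, the blue opsin of a subset of R8 cells, read 7.58, 50.5, 55.8 and 35.3 CPM in WT and 6.16, 12.1, 11.5 and 14.7 CPM in P58S. Again WT replicate 1 alone lay among the P58S values, and the difference was -1.41 (SE 0.89, adjusted p 1). In male heads at day 20 Rh5 fell by 2.81 (SE 0.17, edgeR adjusted p 3.48e-11).

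Rh6, the green opsin of the remaining R8 cells, read 474, 494, 497 and 466 CPM in WT and 551, 488, 476 and 569.7 CPM in P58S. Its groups overlapped, at a difference of 0.11 (SE 0.19, limma adjusted p 1). ninaE, the rhodopsin of the outer photoreceptors, stood at 12930 to 19559 CPM in WT and 16954 to 25311 CPM in P58S (0.36, SE 0.14, adjusted p 0.903). Rh2, the opsin of the ocelli, stood at 144 to 211 CPM in WT and 134 to 169 CPM in P58S (-0.15, SE 0.27, adjusted p 1). Rh7, expressed in the brain, read 24.6, 9.95, 26.1 and 0 CPM in WT and 45.6, 34, 38.6 and 31 CPM in P58S (2.02, SE 1.01, adjusted p 0.987). Its P58S values all lay above WT, and without WT replicate 4, the library at 0, the difference was 0.95. Among the 11 photoreceptor markers, Rh4 alone was called by limma and by edgeR. trp, a channel of the phototransduction cascade, stood at 592 to 788 CPM in WT and 674 to 826 CPM in P58S (0.16, SE 0.21, adjusted p 1).

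**Figure D3:**
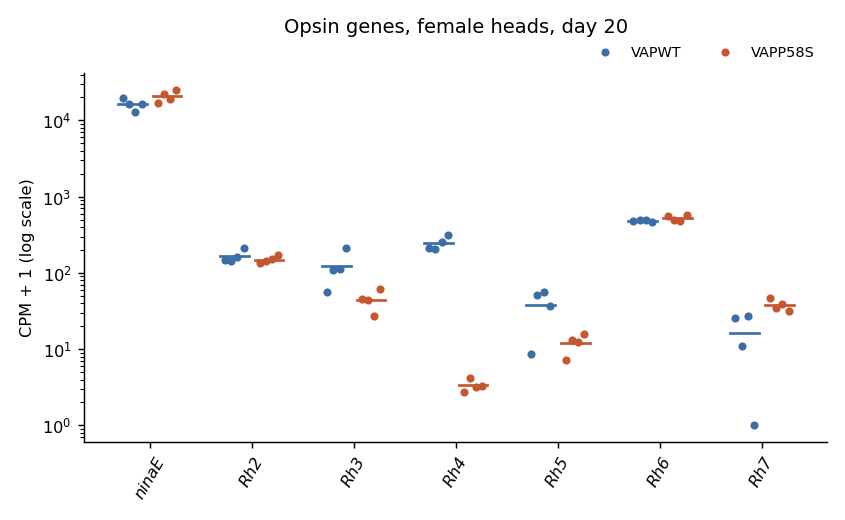
CPM + 1 on a log axis for the 7 opsin genes in the 4 WT (blue) and 4 P58S (orange) female head libraries at day 20, with bars at the group means. Rh4 is the one opsin called, falling from 207 to 310.0 CPM to at most 3.18 CPM, while Rh6 stood at 466 to 569.7 CPM in both groups.

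The gene to (takeout) encodes a secreted protein of a juvenile hormone-binding family, under circadian control and made in head fat body and in sensory tissue, with roles in feeding and male courtship (dm6 3R:25240180-25241668). It read 143, 163, 87.3 and 121 CPM in WT and 1.47, 1.59, 5.61 and 0 CPM in P58S. The groups were far apart, with P58S replicate 3 the highest of its group. The means were 129 CPM ± 32.5 (SD, n = 4) in WT and 2.17 CPM ± 2.41 (SD, n = 4) in P58S. Takeout (to) fell by 5.63 on the log2 scale (SE 0.80, limma adjusted p 0.00232; edgeR -5.76, adjusted p 0.000628), under all 20 alternatives as well.

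At day 5 the difference of to in female heads was -4.27 (limma adjusted p 0.0493), with WT at 44.9 to 142 CPM and P58S at 0.644 to 19 CPM. The day 5 call held in 8 of 19 alternatives and was lost in the other 11, among them the replicate block (adjusted p 0.0912), TMM scaling (0.0698), no filter (0.0669), day 5 libraries alone (0.312) and leaving out WT replicate 3 or 4 or P58S replicate 1, 3 or 4 (0.0744 to 0.255). The change of the effect of to between the ages was -1.36 (limma adjusted p 0.83). In male heads at day 20 to fell by 6.35 (SE 0.44, edgeR adjusted p 3.03e-10), from 39 to 61.1 CPM to 0.415 to 0.959 CPM, and in female guts by 2.73 (limma adjusted p 0.0131). It was the one gene called in the same direction in female and male heads at day 20. The other genes of its list, which holds sex-biased and fat body genes, were not called. The yolk protein gene Yp2 stood at 8466 to 32958 CPM in WT and 12578 to 25044 CPM in P58S (0.29, SE 0.27, limma adjusted p 1; 0.03 to 0.68 with 1 library left out). fit, a fat body gene linked to sex and feeding, stood at 106, 167, 1299 and 306 CPM in WT and 921, 941, 623 and 395 CPM in P58S (1.23, SE 0.52, adjusted p 0.927), with WT replicate 3 above all the P58S libraries. Without WT replicate 1 the difference of fit was 0.75, and without WT replicate 3 it was 1.95.

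CG6006 (dm6 3R:16154982-16171766) read 184, 171, 199.6 and 135 CPM in WT and 33.9, 39.7, 36.1 and 53.7 CPM in P58S. The groups did not overlap, and the highest P58S library was well under the lowest WT library. The means were 172 CPM ± 27.3 (SD, n = 4) and 40.8 CPM ± 8.89 (SD, n = 4), a ratio of 4.22. CG6006 fell by 2.06 (SE 0.34, limma adjusted p 0.0145; edgeR -1.96, adjusted p 0.00317). It was called under 13 of 20 alternatives and lost under median centring (adjusted p 0.928), under the replicate block (0.0734) and without any 1 of WT replicates 1, 2 and 3 and P58S replicates 1 and 3 (0.0528 to 0.109), at values of -2.20 to -1.92 throughout.

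CG6006 had a difference of -1.72 in female heads at day 5 (limma adjusted p 0.0785; called in 7 of 19 alternatives), with 119.6 to 194 CPM in WT against 34.7 to 54.5 CPM in P58S. In female guts at day 20 it fell by 1.49 (limma adjusted p 0.0455), from 61.7 to 99.4 CPM to 20.3 to 42.5 CPM. In male heads it stood at 72.5 to 128 CPM in the 12 WT libraries and 74.7 to 134 CPM in the 12 labelled VAPP58S, and the day 20 difference was 0.15 (SE 0.15, edgeR adjusted p 0.834). Whether the effect differs between the sexes was not tested, since kit and table differ with sex.

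Bomanins are short secreted peptides made by the fat body when the Toll pathway is active and needed in flies to resist fungi and Gram-positive bacteria, and Daishos (Dso1, Dso2) are Toll-dependent antifungal peptides. Most Bomanin genes sit side by side on chromosome 2R, from BomT1 at 18381393 to the end of BomS6 at 18390629 (dm6). All 14 tested members had values above 0, beside 60.1% of all genes, with a median log2 difference of 1.08 beside 0.16 over all genes tested. Limma called 0 of 14, against 0% of all genes called higher, with 12 at an unadjusted p under 0.05 against 4.19% of all genes. EdgeR called 5 higher (BomS1, BomS2, BomS3, BomS5 and Dso1), beside 0.125% of all genes called higher. Library quality weights in limma called 7 (0.28% of all genes called higher), and limma without the 3 shallowest libraries 8 (0.356%). For 7 of the 14 the P58S values lay wholly above the WT values (3.77% of all genes).

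BomS5 read 390.2, 500.0, 306 and 377 CPM in WT and 1175, 569, 1575 and 839 CPM in P58S. The groups did not overlap, P58S replicate 2 being nearest to WT. The difference was 1.32 (SE 0.27, limma adjusted p 0.0871; edgeR 1.51, adjusted p 0.00317). BomS1 read 188, 267, 182 and 252 CPM in WT and 472, 398, 800.4 and 469.6 CPM in P58S (1.23, SE 0.26, limma adjusted p 0.0871; edgeR adjusted p 0.00483). It showed the same order, with replicate 3 highest in P58S. BomS2 read 427, 268, 189 and 375 CPM in WT and 809, 488, 924 and 770.5 CPM in P58S (1.27, SE 0.28, limma adjusted p 0.125; edgeR adjusted p 0.00729).

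Dso1, the most abundant member, read 2575, 1979, 1555 and 2128 CPM in WT and 4466, 2705, 6064 and 4314 CPM in P58S. Its groups did not overlap, again with P58S replicate 2 lowest and replicate 3 highest (1.06, SE 0.24, limma adjusted p 0.125; edgeR 1.22, adjusted p 0.00483). BomBc3 (1.56, SE 0.44) and BomT1 (1.51, SE 0.70) had the widest differences of the list, at means of 66.5 CPM in WT and 204 CPM in P58S for BomBc3, and neither passed (limma adjusted p 0.397 and 0.962). BomS6 (0.47), BomT3 (0.53), BomS4 (0.54), BomBc1 (0.72), BomBc2 (0.78), BomS3 (1.05), BomT2 (1.10) and Dso2 (1.12) lay between 0.47 and 1.12. Leaving out WT replicate 3 took BomS6 to 0.17 and leaving out P58S replicate 1 took it to 0.27, while BomBc1 came to 0.23 once P58S replicate 3 was dropped. BomS4 and BomBc2 overlap in the annotation, and the labels do not say how shared reads were counted. Summed over the list, WT libraries held 6379, 5759, 4200 and 5489 CPM and P58S libraries 11923, 6973, 14167 and 10893 CPM, so that P58S replicate 2 was the nearest to WT. The fat body markers, whose tissue makes these peptides, summed to 11792 to 14683 CPM in WT and 11827 to 15783 CPM in P58S and overlapped. These sums do not measure the amount of fat body, whose part in the Bomanin values was not tested.

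The same list had a median of 0.22 in female heads at day 5, where the all-gene median was 0.65. The change between ages was not called for any gene by limma (0 of 9640; 135 or 1.4% higher and 388 or 4.02% lower at an unadjusted p under 0.05; 0 by edgeR), so the list is not shown to differ between ages. In male heads at day 20 the median was 0.45 beside -0.0035 over all genes, with 4 of 14 called higher (BomS2, BomS3, BomS5 and Dso2; background 0.862%). BomS5 was 0.84 there (SE 0.16, edgeR adjusted p 0.00236).

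**Figure D4:**
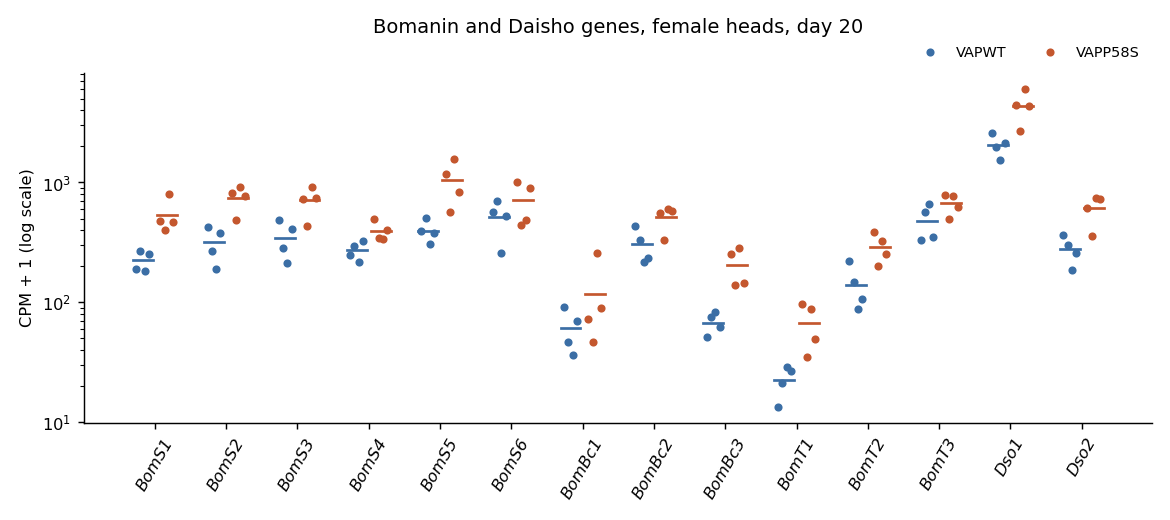
CPM + 1 on a log axis for the 14 tested Bomanin and Daisho genes in the 4 WT (blue) and 4 P58S (orange) female head libraries at day 20, with bars at the group means. The P58S mean is the higher in each gene; for 7 of the 14, BomS5 and Dso1 among them, the points of the groups do not overlap.

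The classical antimicrobial peptide genes, induced by the Imd and Toll pathways, varied widely between libraries, and 0 of 13 tested were called by limma or by edgeR. All 13 had values above 0 (median 1.69), beside 60.1% of all genes tested, and 7 stood higher at an unadjusted p under 0.05, beside 4.19% of all genes. Drosomycin (Drs), the antifungal peptide used as a Toll readout, read 9.47, 89.2, 65.9 and 57.9 CPM in WT and 249.5, 80.4, 894 and 201 CPM in P58S. The groups overlapped through P58S replicate 2 (2.49, SE 0.77, limma adjusted p 0.536). The Imd target Diptericin A (DptA) ran from 0.594 to 143 CPM in WT and from 71.2 to 301 CPM in P58S (2.20, SE 0.97, adjusted p 0.962), and without WT replicate 3 the difference was 0.83. AttB, an attacin, read 30.3, 20.3, 16 and 2.94 CPM in WT and 51, 32.1, 76.9 and 41.7 CPM in P58S (1.75, SE 0.75, adjusted p 0.935; 1.12 without WT replicate 4). It was the one tested member whose groups did not overlap, and reads of near-identical attacin copies may have been split between them.

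Drsl4, a Drosomycin-like gene (dm6 3L:3315620-3315942), was set further apart than any of these. It read 0.947, 5.9, 4.16 and 11.8 CPM in WT and 137, 63.5, 100.1 and 107 CPM in P58S, with no overlap and a ratio of means of 17.9. The difference was 4.19 (SE 0.92, limma adjusted p 0.125; edgeR 4.21, adjusted p 0.00134). At day 5 the difference was 1.44 (limma adjusted p 0.436). In male heads both genotypes expressed it, at a median of 92.6 CPM in WT and 176 CPM in P58S over the 3 ages, and at day 20 it rose by 1.02 (SE 0.19, edgeR adjusted p 0.00188).

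Components of the pathways were listed apart from their target genes. On the Toll list 0 of 14 were called by limma, 0 at an unadjusted p under 0.05 and 0 by edgeR, with a median of 0.20. On the Imd list 0 of 18 were called by limma or edgeR, and 1 stood higher at an unadjusted p under 0.05 (4.19% of all genes). Its median was 0.58, beside 0.16 over all genes tested.

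Turandot genes encode small secreted peptides induced by stress through JAK-STAT signalling. TotC read 30.3, 16.6, 79.6 and 96.6 CPM in WT and 1160, 262, 322 and 163 CPM in P58S. P58S replicate 1 was far above the rest, and the groups did not overlap (2.97, SE 0.74, limma adjusted p 0.243; edgeR 3.19, adjusted p 0.00483). TotA read 65.4, 125, 245 and 239 CPM in WT and 1274, 510.4, 466 and 405 CPM in P58S, again without overlap (1.99, SE 0.71, limma adjusted p 0.748; edgeR adjusted p 0.11). In male heads TotA rose by 1.68 (SE 0.36, edgeR adjusted p 0.0108). The cytokine genes upd1 and upd3 were unread in all 8 female libraries, while Stat92E, the transcription factor of the pathway, was at -0.17 (limma adjusted p 1). Limma called 0 of the 9 tested genes on this list, with 2 higher at an unadjusted p under 0.05 (4.19% of all genes). EdgeR called 1 higher (0.125% of all genes).

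Heat shock chaperones had values above 0 in 16 of 16 tested genes (median 1.16), beside 60.1% of all genes, and 1 library of each group set much of the level. Their sums were 7716, 2714, 2564 and 3966 CPM in WT and 3436, 5969, 4605 and 20296 CPM in P58S, so that WT replicate 1 and P58S replicate 4 stood above the others of their groups. Limma called 0, with 4 at an unadjusted p under 0.05 (4.19% of all genes stood higher so) and 0 by edgeR. Without the 3 shallowest libraries, WT replicate 1 among them, limma called 3 higher (0.356% of all genes called higher). Hsp70Bc, an inducible Hsp70 copy whose reads may be shared with its near-identical neighbours, read 72.9, 0.737, 0.594 and 9.32 CPM in WT and 16.7, 133, 94.9 and 842 CPM in P58S. The groups overlapped (4.12, SE 1.44, limma adjusted p 0.732). Hsc70-4, the constitutive member, stood at 1570 to 2264 CPM in WT and 1802 to 2467 CPM in P58S (0.21, SE 0.14, adjusted p 1). In male heads at day 20 the list had a median of -0.54 beside -0.0035 over all genes, with 1 of 15 called higher (0.862% of all genes).

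**Figure D5:**
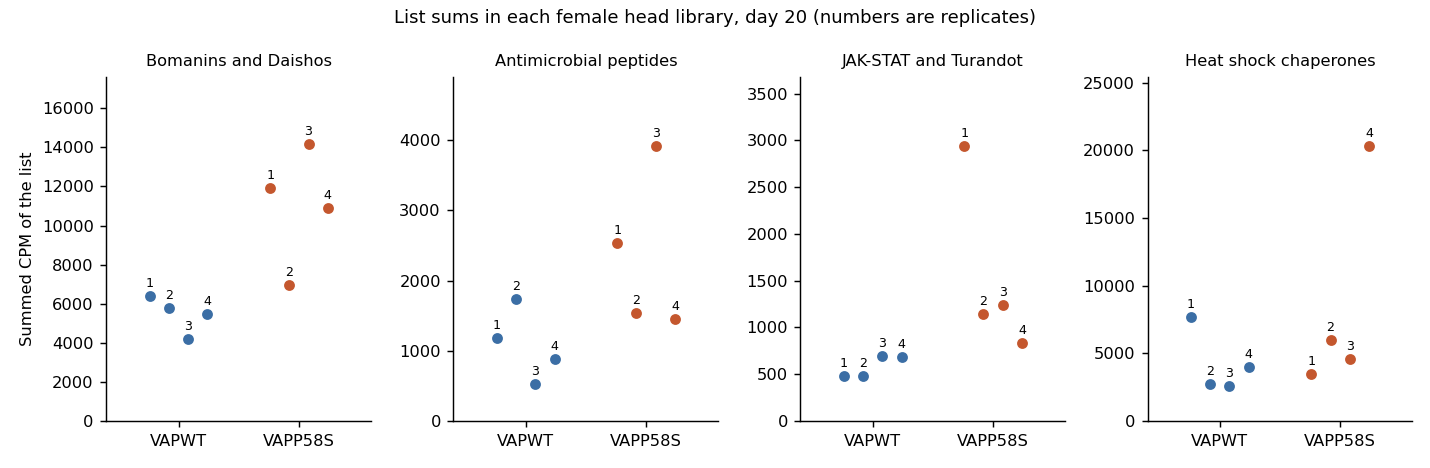
Summed CPM of the Bomanins and Daishos, the antimicrobial peptides, the JAK-STAT and Turandot genes and the heat shock chaperones in each of the 8 female head libraries at day 20, each axis starting at 0; blue is WT, orange P58S, and the number is the replicate. The Bomanin sums were 4200 to 6379 CPM in WT and 6973 to 14167 CPM in P58S, and a single P58S library, replicate 4, held 20296 CPM of heat shock transcripts.

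Among the genes with the smallest unadjusted p that stood higher in P58S without overlap, 12 are given by rule, BomS1, BomS2, BomS5, Dso1 and Drsl4 among them, and none passed limma. hry (hairy), a transcriptional repressor of the HES family, read 199.9, 93.2, 146 and 157 CPM in WT and 425, 329, 317 and 547 CPM in P58S. Every P58S library was above every WT library (1.45, SE 0.32, limma adjusted p 0.125; edgeR 1.58, adjusted p 0.00918). In male heads hry rose by 1.05 (SE 0.18, edgeR adjusted p 0.000923), and in guts its value was 1.29 (limma adjusted p 0.0669).

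Ank2, a neuronal ankyrin that ties membrane proteins to the spectrin skeleton of axons and synapses, read 706, 794, 615 and 646 CPM in WT and 1269, 1252, 1456 and 1057 CPM in P58S. The groups were narrow and apart (0.86, SE 0.20, limma adjusted p 0.156; edgeR 0.98, adjusted p 0.0292), and in male heads the value was 0.19 (edgeR adjusted p 0.409). glob1, a globin gene named here since edgeR called it, read 305, 269, 241 and 189 CPM in WT and 422, 438, 593 and 436 CPM in P58S (0.92, SE 0.21, limma adjusted p 0.158; edgeR 1.03, adjusted p 0.0247). In both genes all P58S libraries were above all WT libraries.

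The remaining 5 of the 12 were nearly unread in WT. lncRNA:CR45997, a long noncoding RNA, read 0, 5.9, 0 and 0 CPM in WT and 37.1, 45.7, 41.5 and 34.7 CPM in P58S (4.64, SE 0.90, limma adjusted p 0.0805). CG10936 read 0, 5.9, 0 and 1.47 CPM against 23.9, 33.3, 18.1 and 27 CPM (3.68, SE 0.82, adjusted p 0.125). In male heads CG10936 rose by 0.84 (SE 0.15, edgeR adjusted p 0.00131). CG4210 and BBS9, which encodes a subunit of the BBSome that carries cargo in cilia, had no read in any WT library. Set against 3 reads over the 4 WT libraries (0.4 CPM), their P58S means of 8.74 and 10.3 CPM gave ratios of 21.8 and 25.7. This reckoning covers counting error only. Neither gene passed (limma adjusted p 0.0871 and 0.156, edgeR adjusted p 0.143 and 0.193). CG3589 was at 0 to 0.368 CPM in WT and 2.93 to 7.24 CPM in P58S (adjusted p 0.0805). CG11672, also called by edgeR, was at 0 to 0.368 CPM in WT and 13.2 to 29.7 CPM in P58S (limma adjusted p 0.174; edgeR adjusted p 0.021).

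On the low side, 9 further genes with the smallest unadjusted p and no overlap did not pass. CG9377 read 68.2, 11.8, 27.9 and 83.9 CPM in WT and 0, 0.318, 6.34 and 0 CPM in P58S (-4.44, SE 0.90, limma adjusted p 0.0871). In male heads CG9377 fell by 5.07 (SE 0.65, edgeR adjusted p 3.86e-05). The P450 gene Cyp6a2, an enzyme of detoxification, read 36.9, 2.21, 14.3 and 4.91 CPM in WT and 0, 0, 0.244 and 0 CPM in P58S (-3.28, SE 1.02, adjusted p 0.569), and it fell by 4.69 in male heads (SE 0.74, edgeR adjusted p 0.000475). Lack of overlap in female heads was a condition for naming both, so it adds no support. The falls in male heads were called in separate libraries.

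Lk6, a kinase that phosphorylates the translation factor eIF4E, read 4673, 3423, 3327 and 4192 CPM in WT and 2536, 2669, 2494 and 2697 CPM in P58S. P58S was uniformly lower (-0.57, SE 0.12, limma adjusted p 0.0871), whereas male heads gave 0.02 (SE 0.20, edgeR adjusted p 0.991). pros (Prospero), a homeodomain factor of neurons and of R7 cells, where it represses R8 opsins, read 3111, 2370, 1981 and 2571 CPM in WT and 1849, 1688, 1838 and 1771 CPM in P58S (-0.47, SE 0.12, adjusted p 0.262). RpS5b, a ribosomal protein copy abundant in the ovary, read 232, 83.3, 108 and 199 CPM in WT and 38.9, 21.9, 43.7 and 37 CPM in P58S (-2.03, SE 0.57, adjusted p 0.386). In male heads RpS5b was at or under 1.83 CPM in all 24 libraries labelled VAPWT or VAPP58S. The yolk and ovary markers summed to 54605 to 119963 CPM in WT and 71499 to 103558 CPM in P58S, and the ovarian gene osk was at 0 to 16 CPM in WT and 0 to 9.03 CPM in P58S, whose part in the RpS5b value was not tested. CG14434 (-2.57), CG14500 (-3.15), tRNA:Ser-TGA-2-1 (-3.35) and pch2 (-2.30) complete the set, each at a limma adjusted p of 0.395 or more.

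Beyond Rh4 and to, no member of the 45 lists was called by limma (2 of 773 distinct tested genes). On the list of VAP and its contact site partners 0 of 12 were called, with 0 at an unadjusted p under 0.05, 0 by edgeR and a median of -0.067. The ER stress and chaperone list gave 0 of 20 by limma, 0 at an unadjusted p under 0.05 and 0 by edgeR (median 0.047). On the list drawn up for fly counterparts of ALS genes, limma called 0 of 14. Ank2 and Khc, the kinesin heavy chain, stood higher at an unadjusted p under 0.05 (2 of 14, against 4.19% of all genes). EdgeR called 1, Ank2 (0.125% of all genes called higher). Whether Ank2, a neuronal ankyrin, is the counterpart of an ALS gene was not checked. Khc was read at 5.68 CPM in WT replicate 1 and 45.3 to 63 CPM in the other WT libraries, against 53.4 to 84.3 CPM in P58S (1.16, SE 0.55, limma adjusted p 0.968), and the difference was 0.39 without WT replicate 1.

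The JNK and AP-1 list had a median of 0.60, beside 0.16 over all genes tested and 0.51 for genes under a mean of 10 CPM. Limma called 0 of 18 and edgeR 0, and 3 stood higher at an unadjusted p under 0.05 (4.19% of all genes). For 5 of the 18 the P58S values lay wholly above the WT values (3.77% of all genes). kay, the fly Fos and the gene the wider study alters in glia, read 205, 218, 114 and 129 CPM in WT and 190.4, 179, 213 and 262 CPM in P58S. The groups overlapped (0.38, SE 0.27, limma adjusted p 1; 0.22 without WT replicate 3), and the value in male heads was 0.35 (edgeR adjusted p 0.0853). Its partner Jra, the fly Jun, read 0, 10.7, 12.5 and 10.8 CPM in WT and 24.9, 15.9, 25.9 and 31 CPM in P58S (1.92, SE 1.04, adjusted p 1), without overlap, the 0 being WT replicate 1, without which the difference was 1.01. egr, the TNF ligand that activates JNK, stood at 0 to 2.38 CPM in WT and 7.08 to 15.3 CPM in P58S (2.22, SE 1.00, adjusted p 0.962). puc, the JNK phosphatase and a target of the pathway, overlapped between groups (0.36, SE 0.58, adjusted p 1; 0.10 to 0.69 with 1 library left out). The glial marker repo was at 11.3 to 52.1 CPM in WT and 11.2 to 27 CPM in P58S (-0.20, SE 0.90, adjusted p 1), and the eye pigment transporter white was at 0 to 5.9 CPM in WT and 1.27 to 8.21 CPM in P58S (0.96, SE 0.83, adjusted p 1; 0.57 to 1.54 with 1 library left out).

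Oxidative phosphorylation, proteasome, ribosomal protein and synaptic release lists had medians from -0.12 to 0.15, beside 0.16 over all genes tested and -0.068 for genes at 50 CPM or more. The mitochondrially encoded genes (13 tested) had a median of 0.26 and the autophagy genes (15) one of 0.31. Limma and edgeR called 0 on either list. At an unadjusted p under 0.05, 1 mitochondrially encoded gene stood higher (4.19% of all genes) and 0 autophagy genes. Oxidative phosphorylation (66 tested, median 0.0022), proteasome (31, 0.068), mitochondrial ribosomal proteins (70, 0.15) and synaptic release (16, -0.12) had no gene called by limma or edgeR and none at an unadjusted p under 0.05. Cytosolic ribosomal protein genes had a median of -0.12 in limma and -0.0033 in edgeR. All genes at 50 CPM or more had medians of -0.068 and 0.012 in these fits. Limma and edgeR called 0 of the 79. At an unadjusted p under 0.05 in limma, 4 of the 79 were lower (0.913% of all genes), RpS5b among them. As CPM without TMM scaling, the P58S values lay wholly below WT for 10 of the 79 (2.06% of all genes) and wholly above for 1 (3.77%). The clock list gave 0 of 12 by limma, 0 at an unadjusted p under 0.05 and 0 by edgeR; tim was at 1.03 (SE 0.78, limma adjusted p 1; 0.58 to 1.57 with 1 library left out) and Clk at -0.86 (SE 0.64), while in male heads tim rose by 1.08 (edgeR adjusted p 0.00343) and Clk fell by 0.86 (edgeR adjusted p 0.0133).

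Genes called in male heads at day 20 (171, or 1.76%) were read in the female heads, as values from separate tables. Of 84 called higher in males, 82 were tested in females and 60 had a value above 0 (median 0.50; 60.1% of all genes tested lay above 0). Of 87 called lower (0.893% of the male genes tested), 85 were tested and 53 had a value below 0 (median -0.12), and to was the one gene of either set called in females. Syt7, a calcium sensor of vesicle release, read 34.1, 101, 54.6 and 59.8 CPM in WT and 94.6, 127, 115 and 109.9 CPM in P58S. WT replicate 2 fell among the P58S values (0.92, SE 0.53, limma adjusted p 1), and in males Syt7 rose by 1.08 (edgeR adjusted p 9.3e-06). Cyp4e3, a P450 of the Cyp4 family, went the other way in its values: 611, 893, 346 and 875 CPM in WT and 293, 287, 374 and 622 CPM in P58S (-0.77, SE 0.36, adjusted p 0.968), against a rise of 2.54 in males (SE 0.23, edgeR adjusted p 6.33e-08). The difference between the sexes was not tested.

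In female guts at day 20 limma called 33 genes (0.365%), 12 higher (0.133%) and 21 lower (0.232%) in P58S. Of the 10 higher ones tested in heads, 10 had values above 0 in heads (median 1.43), and of 17 lower ones, 12 had values below 0 (median -0.72); to and CG6006 were the pair called lower in both tissues. Ugt35C1, a conjugating enzyme of detoxification, read 1.89, 0.368, 0 and 8.34 CPM in WT heads and 11.3, 16.5, 14.6 and 14.2 CPM in P58S heads. The groups did not overlap (2.61, SE 0.88, limma adjusted p 0.71), and Ugt35C1 rose by 3.19 in guts (SE 0.59, limma adjusted p 0.00963).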

How the data were processed

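RNA came from a manual phenol-chloroform preparation, and 3′ libraries were made with a forward-strand QuantSeq kit for females and a V2 3′ kit for males, per the labels' protocols. Build dm6 is named in the submitters' processing notes. No aligner, counter, annotation or strand setting was given in the sources used here, so genes that overlap on opposite strands cannot be told apart. Gene positions are from Ensembl's BDGP6 annotation, the assembly that dm6 names, matched by gene ID for 17251 of 17421 genes. The female tables the authors deposited hold log2 of CPM with a constant offset, although their names give CPM; the male table the authors deposited holds raw counts. The log2 values were turned back to CPM, and all of 135364 head values checked gave whole reads within 0.1 read (100%).

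Genes at 1 CPM or more in at least 4 of the 16 female head libraries were tested with limma 3.58.1 (R 4.3.3) on log2(CPM + 1), 4 groups and no block; guts were fitted alike, and male heads with edgeR 4.0.16 over 24 libraries. These fits were also run on simulated counts with known changes. The simulation used the same spread for every gene and library, so it did not cover a spread that differs between the genotypes. Alternatives were other pseudocounts, filters and scalings, edgeR, library quality weights, DESeq2 1.42.0 for males, the block and each library left out. Thinned libraries and the fit without the 3 shallowest were chosen after seeing the data. Deviations of same-numbered WT and P58S libraries correlated at -0.16 to 0.0954, so no pairing by number was seen. The labels do not say whether same-numbered libraries were prepared together, and 4 libraries per group cannot settle it.

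The genes and 45 lists were chosen with earlier results of these data known; 32 listed names did not match the table. Named genes were 6 fixed ones, 12 per direction without overlap and with 5 CPM or more in the higher group by smallest p, and up to 5 per list. The other opsins, Bomanins, immune, stress and clock genes, trp, Yp2, puc, glob1, CG11672, osk, Ugt35C1 and Cyp4e3 were named after their values were seen.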

Additional observations from a re-analysis of the deposited data

Results flagged for a closer look

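Among 143 groups of 4 libraries with reads in at least 2 of them, 8 held 1 library far from the other 3 by Dixon's criterion; chance gives about 1 in 20 groups. In WT, replicate 1 was the low one for Jra (0 CPM, the others 10.7 to 12.5 CPM) and Khc (5.68 CPM, the others 45.3 to 63 CPM).

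In P58S, replicate 3 was the high one for glob1 (593 CPM, the others 422 to 438 CPM) and CG9377 (6.34 CPM, the others 0 to 0.318 CPM), and the low one for CG3589 (2.93 CPM, the others 6.75 to 7.24 CPM) and Khc (53.4 CPM, the others 78.4 to 84.3 CPM). P58S replicate 2 was low for BomBc2 (330 CPM, the others 554 to 599 CPM). P58S replicate 4 was low for repo (11.2 CPM, the others 24.6 to 27 CPM).

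In 5 further groups 1 library had reads and the other 3 were at 0, so any read sets that library apart, and neither the criterion nor its chance rate says anything there. These were lncRNA:CR45997 (5.9 CPM), CG3589 (0.368 CPM) and CG11672 (0.368 CPM) in WT replicate 2, Cyp6a2 (0.244 CPM) in P58S replicate 3 and CG14434 (1.59 CPM) in P58S replicate 2.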

How the results depend on the processing

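The 3 calls in day 20 female heads became 6 with a pseudocount of 4, 5 with no filter, 10 with TMM scaling, 14 with edgeR, 34 with library quality weights, 19 with day 20 libraries alone, 16 with thinned libraries and 41 without the 3 shallowest libraries; leaving out 1 library gave 2 to 5. On the lists, 2 calls became 6 with TMM scaling, 9 with edgeR, 14 with weights, 11 with day 20 libraries alone, 11 with thinned libraries and 17 without the 3 shallowest, and 2 to 4 with 1 library left out. The change between ages had 0 calls in every setting run, edgeR and each library left out included.

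At day 5, 5 calls became 1 with a pseudocount of 0.5, 12 with 4, 1 at a 5 CPM filter, 1 with TMM scaling, 2 with median centring, 18 with edgeR, 10 with weights, 1 with day 5 libraries alone and 13 without the 3 shallowest; leaving out 1 library gave 0 to 384, the 384 without WT replicate 1 of day 5. Guts had 33 calls, 18 with no filter and 22 to 40 with 1 library left out, and male heads 171, 257 by DESeq2 and 107 to 147 with 1 library left out. The replicate block gave 2 calls in day 20 female heads, 2 on the lists, 0 at day 5, 0 for the change between ages, 33 in guts and 150 in males. Only the day 5 count moved by over 1.5 times. Whether the numbers pair the libraries is not known.

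Of 67 named genes, 2 changed sign. Vap33 (0.018) was -0.013 and -0.015 without WT replicates 3 and 4 (-0.015 to 0.068 with 1 library left out) and -0.058 in thinned libraries. repo (-0.20) was 0.087 with weights, 0.16, 0.11 and 0.087 without WT replicates 1 and 4 and P58S replicate 4 (-0.54 to 0.16 with 1 library left out), and 0.16 without the 3 shallowest. The causes were not tested. WT depth limits the low genes: 3 reads are 1.11 to 2.84 CPM in WT and 0.44 to 0.953 CPM in P58S, counting error only.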
